A study of Mus musculus with 168 samples.

Results

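The Mir181 family of microRNAs was examined in the mouse hippocampus, in an allelic series that models Huntington's disease. Its 6 members, Mir181a-1, Mir181a-2, Mir181b-1, Mir181b-2, Mir181c and Mir181d, were taken by gene name from the GENCODE M21 annotation, 1 transcript each, out of 1626 transcripts in the deposited tables. All 6 passed the filter on low counts, which left 470 transcripts for testing. Each library came from the hippocampus of 1 mouse on a C57BL/6 background, and the libraries fell into 21 groups of 8. The groups were 7 genotypes (WT, Q20, Q80, Q92, Q111, Q140 and Q175) at 3 ages, 2, 6 and 10 months (2m, 6m, 10m). The knock-in mice carried 1 normal *Htt* allele and 1 allele with human *HTT* exon 1, whose CAG repeat has about the length given in the line name. Q175 arose by expansion of the repeat within the Q140 line, and the WT mice were littermates of the Q20 line, with 7 CAG repeats in the mouse gene. Q20 and WT together served as controls, as in the study. Each group had 4 libraries of either sex, apart from Q80 at 2m with 3 from females and 5 from males and Q20 at 10m with the reverse numbers.

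MicroRNA genes are transcribed into long primary RNAs, from which a hairpin is cut and then trimmed to a mature strand that guides the silencing complex to partly complementary messenger RNAs. Targeting depends mostly on the seed, the bases that follow the first base at the 5′ end, so microRNAs with one seed are grouped into a family. The Mir181 family is best known for tuning antigen sensitivity in developing T cells of the mouse, and in rodent brain it is abundant in neurons and has been studied in astrocytes and at synapses, where miR-181a lowers the AMPA receptor subunit GluA2.

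The family lies in 3 pairs on 3 chromosomes (coordinates in GRCm38, the build called mm10). Mir181a-1 (chr1:137966455-137966541, plus strand) and Mir181b-1 (chr1:137966639-137966718, plus strand) lie 97 bases apart. Both lie in an intron of the noncoding gene Gm4258 on the same strand, and the lincRNA A430106G13Rik holds Mir181b-1 in an exon and part of Mir181a-1. Mir181a-2 (chr2:38852735-38852810, plus strand) and Mir181b-2 (chr2:38853830-38853918, plus strand) lie 1019 bases apart in an intron of Nr6a1, an orphan nuclear receptor gene on the opposite strand. Mir181c (chr8:84178873-84178961, minus strand) and Mir181d (chr8:84178716-84178787, minus strand) lie 85 bases apart, in an intron of Nanos3 on the same strand. Nanos3 is known for its role in germ cells.

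The mature 5p strands show what the 6 genes share and where they part, and they decide which members a short read can tell apart. They are given 5′ to 3′ from RefSeq (GRCm38.p6), which held all 6 members, with the seed (bases 2 to 8) in capitals.
miR-181a-5p, from Mir181a-1 and Mir181a-2: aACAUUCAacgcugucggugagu
miR-181b-5p, from Mir181b-1 and Mir181b-2: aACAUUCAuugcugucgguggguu
miR-181c-5p, from Mir181c: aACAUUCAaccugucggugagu
miR-181d-5p, from Mir181d: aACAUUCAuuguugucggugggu

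All 6 genes share the seed ACAUUCA, and of 1679 mature names in the RefSeq table only these 4 carry it. Counted from 1 at the 5′ end of miR-181a-5p, miR-181b-5p differs by A9U, C10U and A21G and by 1 added base near its end, and miR-181d-5p by A9U, C10U, C12U and A21G. Against miR-181c-5p the alignment holds 1 gap and no substitution. Mir181a-1 and Mir181a-2 make the same 5p strand, and so do Mir181b-1 and Mir181b-2. A read of those strands cannot be placed on 1 copy.

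The copies can be told apart by their 3p strands, which come from the other arm of the hairpin and are shown here for that reason, with bases 2 to 8 in capitals.
miR-181a-1-3p: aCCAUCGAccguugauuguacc
miR-181a-2-3p: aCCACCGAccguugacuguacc
miR-181b-1-3p: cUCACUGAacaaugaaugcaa
miR-181b-2-3p: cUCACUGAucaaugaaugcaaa

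Between the Mir181a copies the 3p strands differ by U5C and U16C, counted from the 5′ end of miR-181a-1-3p, and U5C falls within bases 2 to 8. Between the Mir181b copies they differ by A9U and 1 gap, which leaves bases 2 to 8 the same. The deposited tables give 1 value for each gene, not for each arm, so the values below do not separate 5p from 3p.

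A library held between 2117539 and 9099227 estimated counts in total (median 3374648). The lowest count of any member in a library was 1519, of Mir181b-2. Library F1 of Q111 at 2m stood apart. Its TMM factor, the scaling edgeR gives a library, was 1.22, and the next highest was 1.07. At 6m all WT and Q175 libraries shared one block of library numbers (block A, 16 libraries) and the other 40 libraries another (block B). At 2m and 10m the labels give lane-like codes (L2 to L4 and L6 to L8), called batches below, so age and batch cannot be told apart. At 6m the labels of block B carry such a code too, L1 in all but library F2 of Q92, which has L3. The blocks, not these codes, served as batches at 6m. Levels are given as CPM, the counts of a transcript scaled to a common library size after TMM.

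Mir181a-2 was the third most abundant of the 470 transcripts and held most of the family's counts. Its level was 50789 to 141036 CPM over all libraries, with a median of 97413 CPM. The other 5 members were far lower. Mir181c ran from 5276 to 8595 CPM (median 7062), Mir181b-1 from 2853 to 9130 CPM (median 6196) and Mir181a-1 from 2487 to 7663 CPM (median 5404). Mir181b-2 ran from 549 to 2159 CPM (median 1133) and Mir181d from 802 to 1554 CPM (median 1038). Together the family took 7.64% to 15.7% of a library's counts, with a median of 11.8%.

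Per length of hairpin, Mir181a-2 stood above Mir181a-1 in every library, by a median ratio of 21.0 (range 15.1 to 28.6). Mir181b-1 stood above Mir181b-2 in every library, by a median ratio of 6.12, and Mir181c above Mir181d in every library, by 5.49. By genomic pair, Mir181a-2 was the higher member on chromosome 2 and Mir181c on chromosome 8, whereas on chromosome 1 the 2 members lay closer together (Mir181b-1 over Mir181a-1, median ratio per length 1.25). Mir181c and Mir181b-1 had the same level per length within the spread, with a median ratio of 0.997 and Mir181c higher in 80 libraries. Because copies share their 5p strand, the level of each Mir181a or Mir181b copy is uncertain.

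**Figure D1:**
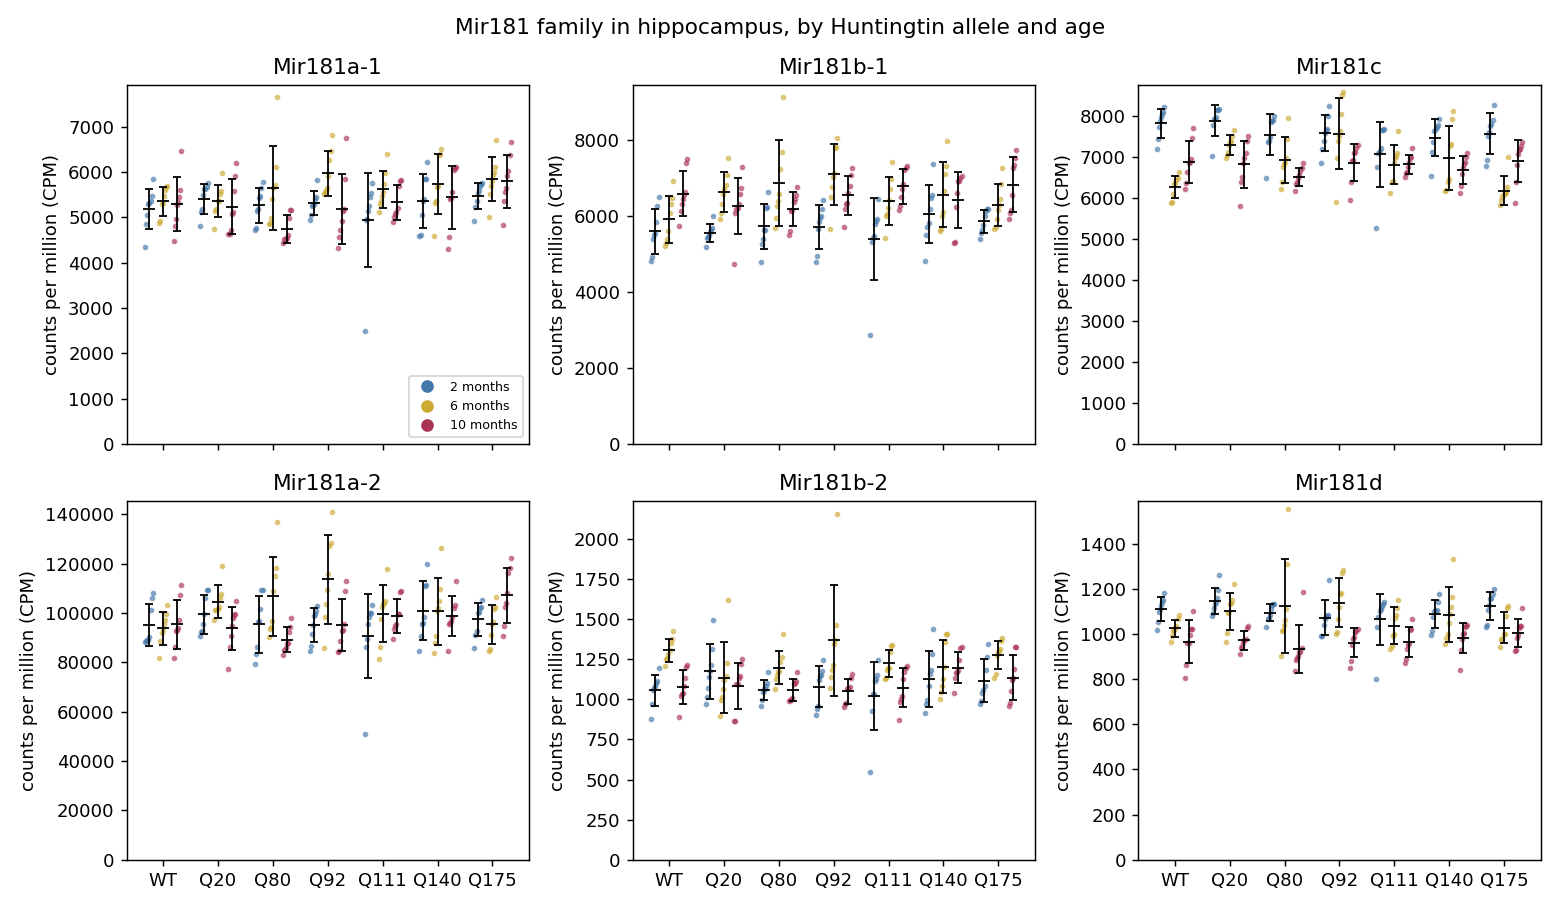
Levels of the 6 members of the Mir181 family in CPM (vertical axes, each from 0) by genotype from WT to Q175, with 2m, 6m and 10m in separate colours; points are libraries and bars the mean ± SD of 8 libraries. Mir181a-2 lies near 97413 CPM while the other 5 members have medians from 1038 to 7062 CPM, and 1 library of Q111 at 2m is low in every panel.

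The split between copies differed between the 2 deposited tables. In the estimated counts, Mir181a-1 held 3.85% to 7.06% (median 5.18%) of the counts of both Mir181a copies, and Mir181b-1 held 76.7% to 88.5% (median 84.6%) of the counts of both Mir181b copies. In the RPKM table, once the length of the hairpin was multiplied back, Mir181a-1 over Mir181a-2 was 1.0016 to 1.0053 in 152 libraries, where both rows thus held about the same amount. In the 16 libraries of block A at 6m it was 0.0587 (median; range 0.0530 to 0.0702), the same as in the counts. Mir181b-1 over Mir181b-2 was 0.988 (median) in the 152 libraries and 4.80 in block A. Other microRNAs with several copies were compared on the same scale in these 152 libraries. Of 18 pairs in the list of multi-copy brain microRNAs, 12 had RPKM times length within 0.1 of each other on the log2 scale (median absolute difference over libraries) and 0 had counts that close, while the counts of 15 pairs lay more than 1 apart. How reads were divided between copies was not tested, and the main calls for a single Mir181a copy are given below with results for the summed copies.

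**Figure D2:**
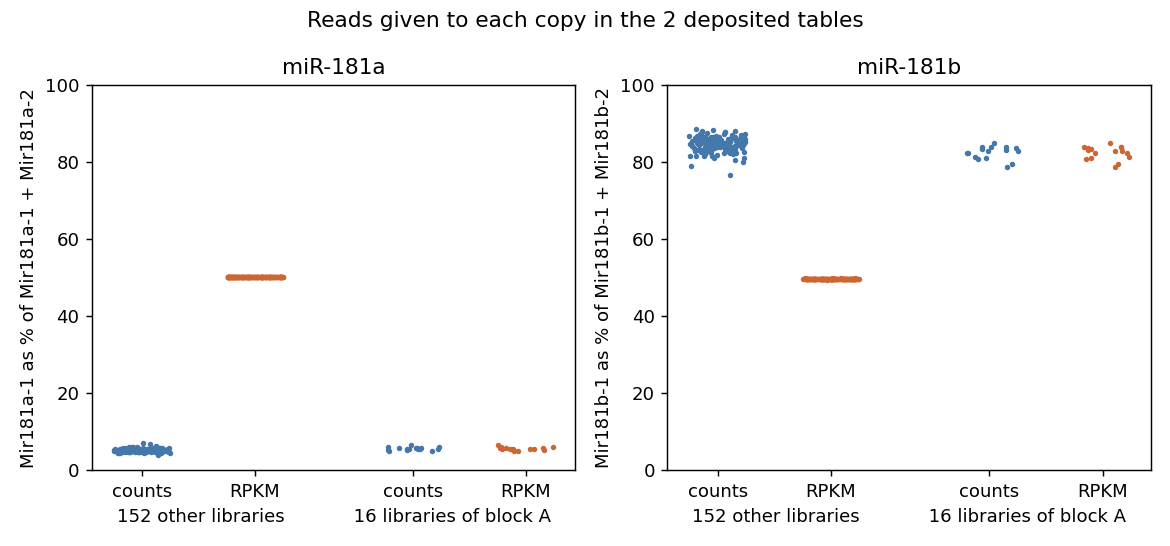
Share of copy 1 in the sum of both copies (vertical axis, percent) in the count table and in the RPKM table, for Mir181a and Mir181b, with the 152 other libraries and the 16 block A libraries of 6m drawn apart. In the counts Mir181a-1 has a median share of 5.18%, and the RPKM rows of the 152 libraries hold equal amounts of both copies.

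The medians of each member by age are descriptions only, since batches are nested in age. At 2m, 6m and 10m, Mir181a-2 had medians of 96778, 101426 and 95586 CPM, and Mir181a-1 had 5355, 5580 and 5180 CPM. Mir181b-1 had medians of 5669, 6429 and 6523 CPM, and Mir181b-2 had 1081, 1219 and 1100 CPM. Mir181c had 7682, 6866 and 6848 CPM and Mir181d had 1108, 1064 and 976 CPM, so both members of the Nanos3 pair were highest at 2m.

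Over the 21 groups, mean Mir181a-2 lay between 89242 ± 5221 CPM in Q80 at 10m and 113669 ± 18075 CPM in Q92 at 6m (SD, n = 8 each). Q92 at 6m also had the highest means of Mir181a-1 (5972 ± 492 CPM), Mir181b-1 (7090 ± 801 CPM) and Mir181b-2 (1368 ± 345 CPM). The highest means of Mir181c (7889 ± 373 CPM) and Mir181d (1147 ± 59.1 CPM) were in Q20 at 2m. In the order of the 21 means, where neighbours lie close because there are many, none of the 20 neighbouring pairs differed by more than the larger of their SDs, for any member. In the order of the 7 genotypes within an age, 1 pair did, for Mir181c at 6m, with a gap of 546 CPM. Mir181c at 6m was lowest where block A was: 5824 to 6994 CPM in its 16 libraries (median 6123), against 5897 to 8595 CPM in the 40 of block B (median 7075). Q175 and WT, the genotypes of block A, had 6176 ± 355 and 6270 ± 279 CPM of Mir181c at 6m, so a Q175 value set against Q20 at this age also sets block A against block B.

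The study asked whether microRNAs follow CAG length, and this was tested at each age as a slope per 100 CAG repeats, with sex and batch as covariates (edgeR quasi-likelihood F test, Benjamini-Hochberg over 470 transcripts, a transcript being called at an adjusted p under 0.05). At 10m Mir181a-2 rose with CAG length, by 0.10 ± 0.03 on the log2 scale per 100 repeats (± SE, adjusted p = 0.025). It was the 1 member called of 6. Of all 470 transcripts, 11.1% were called at 10m (52, of which 27 rose and 25 fell), so the count of 1 in 6 members is not a result about the family. Its group means at 10m, in order of CAG length, were 95501 ± 9885 CPM in WT, 93838 ± 8745 in Q20, 89242 ± 5221 in Q80, 95085 ± 10615 in Q92, 98745 ± 6990 in Q111, 98738 ± 8134 in Q140 and 107168 ± 11245 in Q175 (SD, n = 8 each). The lowest mean was thus in Q80 and the highest in Q175, and Q111 and Q140 were alike. Without the Q175 libraries the slope of Mir181a-2 was 0.07 with an adjusted p of 0.55, and 0 transcripts were called in all, against 52.

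Mir181a-1 had a slope of 0.08 ± 0.03 on the log2 scale at 10m, which did not pass (adjusted p = 0.088). Its 10m means were 5294 ± 597 CPM in WT, 5235 ± 601 in Q20, 4742 ± 307 in Q80, 5183 ± 781 in Q92, 5329 ± 379 in Q111, 5438 ± 689 in Q140 and 5795 ± 579 in Q175 (SD, n = 8 each), lowest in Q80 and highest in Q175 as for Mir181a-2. Slopes of Mir181b-1 (0.05 ± 0.03), Mir181b-2 (0.06 ± 0.04), Mir181d (0.03 ± 0.02) and Mir181c (-0.00 ± 0.02) had adjusted p-values from 0.32 to 0.94. The median slope of the 6 members was 0.05, against -0.00 over the 470 transcripts. As members do not vary independently of each other, this median slope is not a result about the family.

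The slope of Mir181a-2 at 10m depended on single libraries. It was not called without library F1 of Q175 (adjusted p = 0.072) or without library M3 of Q175 (adjusted p = 0.057), both among the higher ones. Leaving out each of the 56 libraries in turn, it stayed between 0.09 and 0.12 on the log2 scale. Without WT, it was 0.17 (adjusted p = 0.0010), and Mir181a-1 was then called too (0.15, adjusted p = 0.0076). That count of members is not a result about the family.

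At 6m no member was called for CAG length, where 1.28% of all transcripts were called. Mir181a-1 had the largest slope, 0.08 ± 0.03 on the log2 scale (adjusted p = 0.20), and it was the 1 member with an unadjusted p under 0.05. Mir181a-2 had a slope of -0.00 at this age, and Mir181b-1, Mir181b-2, Mir181d and Mir181c had slopes of 0.03, 0.02, -0.01 and -0.02. At 2m no member was called either, where 0.213% of all transcripts were called. The smallest p was that of Mir181c, whose slope was -0.05 ± 0.02 (adjusted p = 0.99), the 1 member with an unadjusted p under 0.05. DESeq2 called 0 members at both ages as well.

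Combining the 6m and 10m slopes by the sum of their Z values, as a meta-analysis, Mir181a-1 rose (mean slope 0.08, adjusted p = 0.0084), and it was the 1 member called of 6, where 14.9% of all transcripts were called. Its slopes at the 2 ages were alike, 0.08 each. Mir181a-2 did not pass (mean slope 0.05, adjusted p = 0.16). The call of Mir181a-1 holds for the counts as the deposited table divides them between the copies. With both Mir181a copies summed to 1 value the combined slope was 0.04 with an adjusted p of 0.18. At 10m the summed Mir181a still rose by 0.10 (adjusted p = 0.023). Mir181a-1 held a median of 5.18% of the counts of both copies. The sum therefore mostly follows Mir181a-2 and cannot test Mir181a-1 alone. Summing the copies was chosen after seeing the data. The combined call of Mir181a-1 was lost without block A at 6m (slope 0.08, adjusted p = 0.12).

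Slopes at different ages were also compared directly, in a fit of all ages. The slope of Mir181a-2 at 10m minus that at 6m was 0.11 ± 0.05 on the log2 scale (adjusted p = 0.54), and at 10m minus that at 2m it was 0.10 ± 0.05 (adjusted p = 0.44). No member was called by edgeR for any of the 3 differences between ages, the first of these values was the only one of 18 with an unadjusted p under 0.05, and DESeq2 was not run on them. Of all transcripts, 0.638% were called for 10m against 6m, 2.34% for 10m against 2m and 0.213% for 6m against 2m. The slope of Mir181a-2 at 10m is therefore not shown to differ from that at the younger ages.

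**Figure D3:**
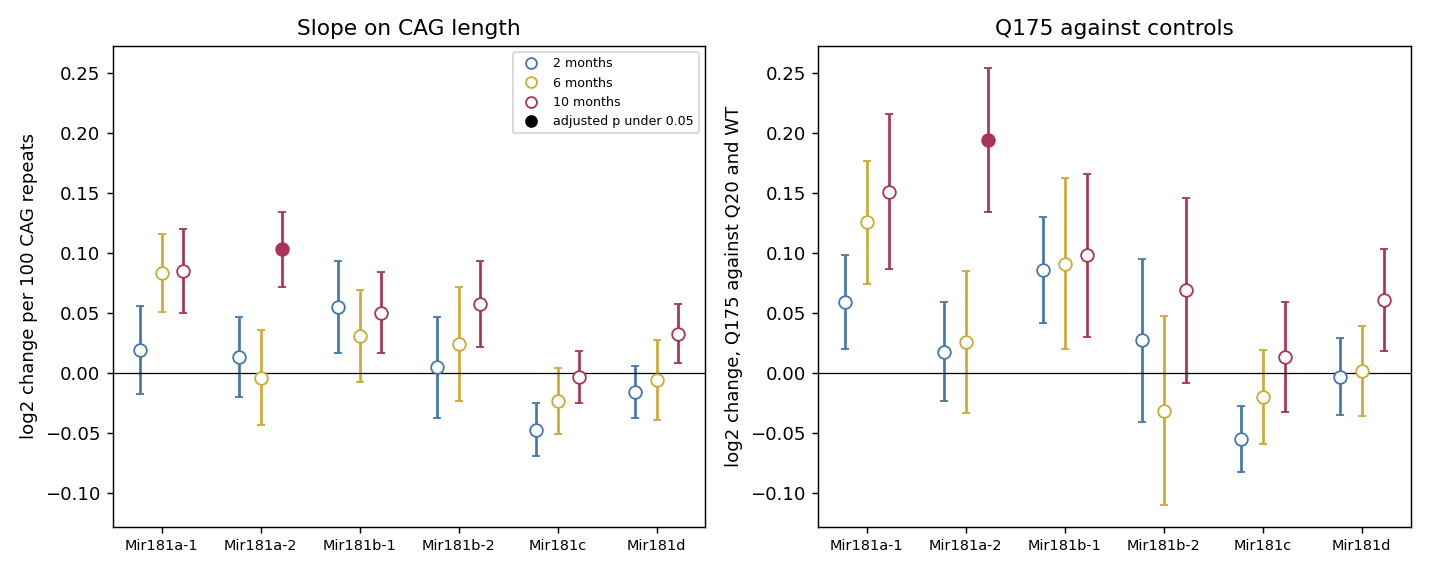
Slopes per 100 CAG repeats and Q175 against controls (vertical axes, log2 change ± SE) for the 6 members at 2m, 6m and 10m, with filled points for an adjusted p under 0.05. Mir181a-2 at 10m is the one filled point in each panel, at 0.10 for the slope and 0.19 for Q175.

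Q175, the line with the longest repeat, was then set against the Q20 and WT controls of each age. At 10m Mir181a-2 rose in Q175. Its Q175 libraries had 122249, 108328, 102565 and 104229 CPM in females F1 to F4 and 94771, 90776, 116124 and 118302 CPM in males M1 to M4. The Q20 libraries had 77444, 104762, 90670, 99528 and 97917 CPM in females F1 to F5 and 86319, 94661 and 99401 CPM in males M1 to M3. The WT libraries had 86298, 81865, 111452 and 107321 CPM in females and 97250, 94124, 93120 and 92581 CPM in males. The groups overlapped: 7 of 8 Q175 libraries were above the control median of 94392 CPM, and 3 were above every control. The means were 107168 ± 11245 CPM in Q175 (SD, n = 8) and 94670 ± 9057 CPM in controls (SD, n = 16), a difference of 0.19 ± 0.06 on the log2 scale (± SE, adjusted p = 0.034, edgeR). It was again 1 member called of 6, where 11.9% of all transcripts were called (56, of which 26 rose and 30 fell).

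Mir181a-1, which makes the same 5p strand, had 6652, 6031, 5367 and 5903 CPM in the Q175 females of 10m and 4825, 5652, 6377 and 5548 CPM in the males. The controls had 4475 to 6459 CPM, with means of 5795 ± 579 CPM in Q175 (SD, n = 8) and 5264 ± 580 CPM in controls (SD, n = 16). Of 8 Q175 libraries 7 were above the control median, yet only 1 was above every control. The difference, 0.15 ± 0.06 on the log2 scale, did not pass (adjusted p = 0.13).

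The other members differed less. Mir181b-1 had 6818 ± 728 CPM in Q175 at 10m, against 6585 ± 598 in WT and 6263 ± 734 in Q20, a log2 difference from controls of 0.10 ± 0.07 (adjusted p = 0.38). For Mir181b-2 the difference was 0.07 (adjusted p = 0.62), for Mir181c 0.01 (adjusted p = 0.88) and for Mir181d 0.06 ± 0.04 (adjusted p = 0.39). The median of the 6 differences was 0.08, against 0.01 over the 470 transcripts, and that of Mir181c was smaller than its SE (0.01 ± 0.05). The members do not vary independently of each other, so this median is not a result about the family. As a whole the family took 11.4% to 14.9% of counts in Q175 at 10m (median 13.2%) and 10.1% to 13.4% in controls (median 11.8%).

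**Figure D4:**
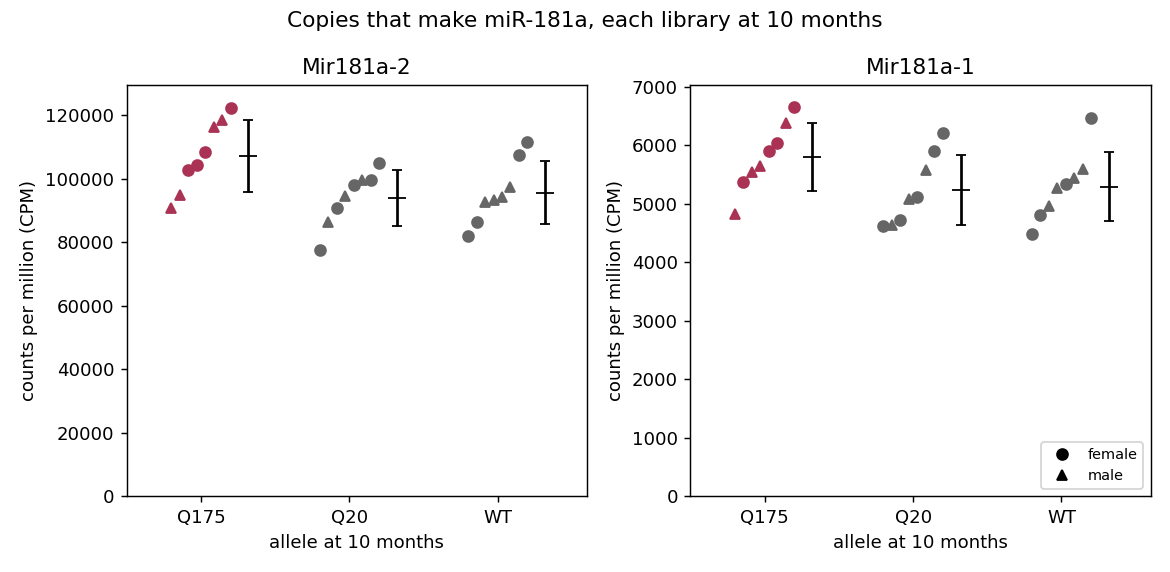
Mir181a-2 and Mir181a-1 at 10m in CPM (vertical axes) in Q175, Q20 and WT, each library a point marked by sex, with bars for the mean ± SD. For Mir181a-2, Q175 has a mean of 107168 CPM and overlaps both control genotypes.

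Within each batch of 10m the Q175 mean of Mir181a-2 was above that of controls, by 0.24 in L6 (3 Q175 and 8 control libraries), 0.19 in L7 (3 and 6) and 0.11 in L8 (2 and 2), on the log2(CPM + 1) scale. For Mir181a-1 these values were 0.21, 0.12 and 0.11. Against WT alone the difference of Mir181a-2 was 0.16 and no longer passed (adjusted p = 0.18). In females alone it was 0.25 (adjusted p = 0.22) and in males alone 0.17 (adjusted p = 0.36), so both sexes had the direction without passing the test in fewer libraries. Leaving out 1 library at a time gave 0.18 to 0.24, and the call was lost without any of Q175 F1, F2 or M3 or WT F1 (adjusted p = 0.060, 0.055, 0.073 and 0.051).

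Both measures were also taken with the Mir181a copies summed, which gave 0.21 (adjusted p = 0.030) for Q175 at 10m. Mir181a-1 held a mean of 5.14% of these counts in Q175 and 5.27% in controls. The sum is thus mostly Mir181a-2 again and not a second result. In the RPKM table, where both Mir181a rows hold about the same amount at this age, limma on log2(RPKM + 1) gave 0.20 for Mir181a-1 and for Mir181a-2 (adjusted p = 0.0058). As these rows hold nearly the same values, they count as 1 result for miR-181a.

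At 6m no member was called in Q175, where 3.4% of all transcripts were called, and the batch term means that the fit compares Q175 with WT, both in block A. Mir181a-1 had 4996 to 6700 CPM in Q175 (median 5868), against 4865 to 5685 CPM in WT (median 5397), with overlap, and a log2 difference of 0.13 ± 0.05 (adjusted p = 0.20), the 1 member value with an unadjusted p under 0.05. Mir181a-2 averaged 95436 ± 7991 CPM in Q175 and 93856 ± 6723 CPM in WT (SD, n = 8 each), well within the spread, although Q20 in block B had 104598 ± 6727 CPM. Mir181a-1 made up 5.78% ± 0.446 of both Mir181a copies in Q175 at 6m (SD, n = 8), against 5.41% ± 0.263 in WT of the same block (SD, n = 8) and 4.88% ± 0.272 in Q20 of block B (SD, n = 8). At 10m the shares were 5.14% ± 0.404 in Q175 and 5.27% ± 0.352 in controls. At 2m no member was called in Q175, nor was any transcript (0% of 470), and 0 members had an unadjusted p under 0.05. DESeq2 called 0 members at 2m and at 6m too. Q175 and the slope share libraries, so they are not independent of each other.

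The shorter alleles were compared with controls in the same way, in 12 fits. No member was called in Q80, Q92, Q111 or Q140 at any age by edgeR, and none by DESeq2. Of all transcripts 0.213% were called in Q111 at 6m and 0% in each of the other 11 fits. Of the 72 member values, 5 had an unadjusted p under 0.05. Over all 470 transcripts, 11 (Q111 at 10m) to 42 (Q140 at 10m) had such a p in a fit. The count of 5 is therefore not a result about the family, and the values are only listed. At 6m these alleles lie in block B, so with the batch term each is compared with Q20 alone. For Mir181c in Q111 at 2m the log2 difference was -0.14 ± 0.05 (adjusted p = 0.59), and without library F1 of Q111 it was -0.10 (adjusted p = 0.39). Against Q20 in Q111 at 6m it was -0.09 ± 0.04 (adjusted p = 0.59), with 6816 ± 484 CPM in Q111 and 7301 ± 240 CPM in Q20 (SD, n = 8 each). Without a batch term, with WT in the comparison as well, it was 0.01 (adjusted p = 0.97). The other values of these 5 were above 0, with 0.14 for Mir181a-1 in Q92 at 6m (adjusted p = 0.63), 0.12 for Mir181b-1 in Q140 at 2m (adjusted p = 0.80) and 0.15 for Mir181b-2 in Q140 at 10m (adjusted p = 0.44). For Mir181a-2 in Q92 at 6m, the group with its highest mean, the SD of 18075 CPM was also the largest of the 21 groups.

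Females and males were compared at each age with genotype and batch in the fit. No member was called by edgeR, where 0.426% of all transcripts were called at 2m, 0% at 6m and 0% at 10m, and DESeq2 called 0 members. The smallest p-values were those of the Nanos3 pair at 2m. Mir181d had a median of 1081 CPM in 27 females and 1127 CPM in 29 males (log2 difference -0.07 ± 0.02, adjusted p = 0.21). Mir181c had 7628 CPM in females and 7729 CPM in males (-0.07 ± 0.03, adjusted p = 0.26). Without library F1 of Q111, a female, these differences were -0.06 for Mir181d (adjusted p = 0.17) and -0.06 for Mir181c (adjusted p = 0.22). At 10m Mir181d had 953 CPM in females and 988 CPM in males (-0.06 ± 0.03, adjusted p = 0.35), and at 6m 0 members had an unadjusted p under 0.05. The slope on CAG length was not shown to differ between females and males for any member (0% of transcripts called at 2m, 0.213% at 6m and 1.06% at 10m). The smallest p was that of Mir181b-1 at 6m (female minus male slope -0.18 ± 0.07, adjusted p = 0.78). It was the 1 value with an unadjusted p under 0.05, and DESeq2 was not run on these differences.

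Levels of other microRNAs give the setting of these changes. Of 30 microRNAs listed for a described role at synapses, 27 were tested, and in Q175 at 10m 8 fell and 0 rose, with a median log2 difference of -0.12, where 6.38% of all transcripts fell. The activity-regulated pair Mir212 and Mir132 fell most (-0.30 and -0.25, adjusted p = 3.14e-05 each). The neuronal Mir124a-1 fell by 0.21, Mir128-1 by 0.15, Mir128-2 by 0.16 and Mir138-2 by 0.12, and Mir29a (-0.18) and Mir186 (-0.12) were also lower. Mir212 and Mir132 form a cluster, and Mir128-1 and Mir128-2 are copies, so the 8 are not separate results. Mir124a-1 and Mir138-2 are also single copies, and how their reads were divided was not tested. The list was chosen with earlier results of these data known. At 6m Mir132, Mir186, Mir212 and Mir29a fell in Q175, where 2.13% of all transcripts fell. For the slope 6 of the 27 fell at 10m (Mir124a-1, Mir128-1, Mir128-2, Mir132, Mir212 and Mir29a) and 0 rose, where 5.32% of all transcripts fell. At 6m 1 fell (Mir186), where 0.638% of all transcripts fell, and for the ages combined 7 fell, with Mir26a-2 among them, where 6.6% of all fell. At 2m 0 passed for either measure. At 10m Mir181a-2 thus moved in the other direction from every called member of that list.

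Of 10 neuronal markers tested 5 fell in Q175 at 10m and 0 rose, where 6.38% of all transcripts fell. The neuronal list overlaps with the synaptic list, and these 5 are among the synaptic members named above as lower. Their count is therefore not a separate finding from the synaptic calls. The summed level of the neuronal markers was 78533 to 84617 CPM in Q175 (median 81159) and 80125 to 91312 CPM in controls (median 86889). In bulk tissue, fewer cells of a type and less RNA per cell cannot be told apart. No marker of oligodendrocytes (3 tested), microglia and leukocytes (4), red blood cells (3), vessels (3), choroid plexus (5) or epithelium (5) was called in Q175 at 10m by edgeR. The choroid plexus list varied most between libraries, from 5289 to 28386 CPM in Q175 (median 6273) and from 6154 to 31911 CPM in controls (median 7096). Over 15000 CPM were found in 18 libraries of the series, of which 2 were Q175 and 4 controls of 10m. Without those libraries, a choice made after seeing the data, Mir181a-2 had a slope of 0.10 (adjusted p = 0.051) and a Q175 difference of 0.20 (adjusted p = 0.061) at 10m, so the sizes stayed and the calls did not. The part of tissue makeup in the change of Mir181a-2 was not tested further.

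Once genotype, sex and batch were removed by a linear fit, members were compared across the 56 libraries of an age, given here as the mean Pearson's r over the 3 ages. The values are descriptions over libraries that share depth and tissue makeup. They use the counts as the deposited table divides them between copies. What that division adds to the values of single copies was not tested. Mir181a-2 and Mir181b-1, which lie on different chromosomes, had the highest value (0.86, with 0.88, 0.87 and 0.82 at 2m, 6m and 10m), and no other transcript was as like Mir181a-2. Mir181a-1 was most like its neighbour Mir181b-1 (0.74). Mir181a-1 and Mir181a-2, the copies of one 5p strand, had 0.71, Mir181c and Mir181d had 0.54 and Mir181a-2 and its neighbour Mir181b-2 had 0.55. The copies Mir181b-1 and Mir181b-2 had 0.42, and the lowest value was that of Mir181b-2 and Mir181c (0.13, and -0.03 without library F1 of Q111 at 2m). Library F1 of Q111 raised the values at 2m: without it, Mir181a-2 and Mir181b-1 had 0.74 at that age, and Mir181a-2 and Mir181c -0.04 in place of 0.45. Mir181b-1 and Mir181c had -0.38 in place of 0.26 at 2m, and a mean of 0.01 over the 3 ages. Without that library, Mir181a-1, Mir181a-2 and Mir181b-1 had 0.66 to 0.81 among themselves over the 3 ages.

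**Figure D5:**
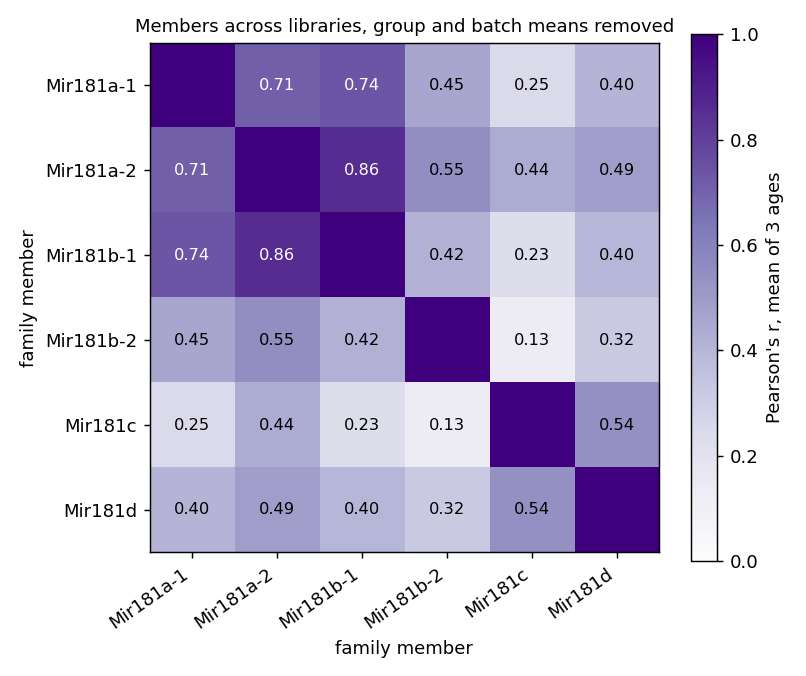
Mean Pearson's r over 2m, 6m and 10m (56 libraries each) between the members, with genotype, sex and batch removed. Mir181a-1, Mir181a-2 and Mir181b-1 have values from 0.71 to 0.86 among themselves, and Mir181b-2 and Mir181c the lowest, 0.13, which is -0.03 without library F1 of Q111 at 2m.

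Outside the family, the 3 transcripts most like each member were named by the same measure. For Mir181a-1 these were Mir21a (0.73), Mir25 (0.71) and Mir192 (0.70), for Mir181a-2 Mir92-1 (0.69), Mir192 (0.69) and Mir151 (0.64), and for Mir181b-1 Mir151 (0.78), Mir21a (0.77) and Mir192 (0.73). Mir192 was thus on the list of all 3 members. For Mir181b-2 they were Mir103-2 (0.59), Mir92-1 (0.59) and Mirlet7i (0.50). Mir181c was most like Mir101b (0.58), Mir30a (0.55) and Mir101a (0.47), and Mir181d most like Mir30a (0.72), Mirlet7i (0.66) and Mir9-2 (0.61), so the Nanos3 pair shared Mir30a. Without library F1 of Q111 at 2m each of these means was lower, that of Mir181a-1 and Mir21a being 0.63. Mir192 for Mir181a-1, Mirlet7i for Mir181b-2 and Mir101a for Mir181c then had rank 4.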

How the data were processed

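MicroRNA was sequenced from 1 hippocampus sample per mouse. Per the study's methods, miRNeasy RNA was read on a HiSeq2000 (single-end, keeping strand), STAR aligned the reads to mm10 and HTSeq counted them. The processing notes of the submitters name CASAVA 1.8.2. The authors deposited counts and RPKM values for every transcript. Only 51.4% of a library's nonzero deposited counts were whole (median, tolerance 0.001), so they are estimated counts. HTSeq gives whole counts, and the step that made fractions is not given in the sources. Planned tests had assumed whole counts, so values were rounded. Reads of the gene copies Mir181a-1 and Mir181a-2, or Mir181b-1 and Mir181b-2, may have been divided between rows, and their values are less certain than those of unique genes. RPKM deposited by the authors equalled the value from the library's own counts within 1% for 87.7% of values (median) in the 16 block A libraries of 6m and for 0.357% in the other 152. At 6m RPKM was therefore not tested.

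Of 1626 transcripts 1228 matched GENCODE M21, and the other 398 held 1.38% of counts. Groups, sex, age and the CAG length of the knock-in lines came from the labels. The labels give no CAG length for WT, which was set to 7 as in the study. edgeR 4.0.16 in R 4.3.3 (TMM, filterByExpr with a minimum count of 10, quasi-likelihood F test, Benjamini-Hochberg, adjusted p under 0.05) was fitted on all 470 transcripts that passed, for each age apart, with sex and batch as covariates, and was tested on simulated data. The SE is the log2 value over the root of F. In the combined slope signed Z values were summed. DESeq2 1.42.0, limma 3.58.1 (pseudocount of 1) and other filters, covariates and subsets were alternatives. In 588 pairs of libraries within groups none agreed within sampling noise. No paired animals are named by the labels.

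The members, the marker, synaptic and multi-copy lists and the tests were chosen with earlier results of these data known. Named genes were the 6 members, the 3 transcripts outside the family most like each (mean r over ages) and the called members of the synaptic list. Of the markers, 1 for liver and 4 for muscle had a row, and liver was near 0.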

Additional observations from a re-analysis of the deposited data

Results flagged for a closer look

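In 15 of 126 groups of 8 libraries (6 members in 21 groups), the highest or lowest library lay farther from the rest than Dixon's critical value allows, where chance gives about 1 group in 20. Of these, 6 were a single library, F1 of Q111 at 2m, which was lowest of its group for every member. It had 2487 CPM of Mir181a-1, with 4936 to 5768 CPM in the other 7 libraries, and 50789 CPM of Mir181a-2, with 86350 to 103282 CPM in the others. For the remaining members it had 2853 CPM of Mir181b-1, 549 CPM of Mir181b-2, 5276 CPM of Mir181c and 802 CPM of Mir181d. This library also deviated over all transcripts, by a median of 0.44 on the log2 scale, against a median of 0.12 over all libraries and a next highest value of 0.27.

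The other 9 were spread over genotypes and ages. Mir181c was low in Q20 F1 (7032 CPM) and Q80 M4 (6479 CPM) at 2m and high in Q175 F3 at 6m (6994 CPM). Mir181d was high in Q92 M2 at 2m (1239 CPM) and Q80 M3 at 10m (1186 CPM). Mir181b-2 was high at 6m in Q20 F2 (1621 CPM) and Q92 M2 (2159 CPM), Mir181a-1 in Q80 F4 at 6m (7663 CPM), and Mir181b-1 was low in Q20 F1 at 10m (4727 CPM).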

How the results depend on the processing

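The number of members called was 1 for the slope at 10m, 1 for the ages combined, 1 for Q175 at 10m and 0 elsewhere. The counts for the slopes and for Q175 stayed so with DESeq2, RLE factors, library totals without the family, no low-count filter, a mean CPM of at least 10 and robust dispersion, and those for the shorter alleles and the sexes under each alternative run on them, which were fewer. The differences in slope between ages or sexes had no alternatives. For the slope at 10m it was 0 in females only, males only, without a batch term (Mir181a-2 0.09, adjusted p = 0.059), without Q175 and without libraries rich in choroid plexus markers, and 2 in limma on RPKM and without WT. For the ages combined it was 0 with copies summed, in females only, without Q175 and without block A. For Q175 at 10m it was 0 with WT alone, in females or males only and without the choroid plexus libraries, and 2 in limma on RPKM. For Q175 at 6m it was 1 without a batch term (Mir181a-1 0.12, adjusted p = 0.038). Leaving out each library gave 0 to 2 members for the slope and for Q175 at 10m and 1 for the ages combined. Mir181a-1 was the added call without WT F3 (adjusted p = 0.017 for the slope, 0.033 for Q175) and, for Q175, without M1 of Q175 (0.043). Over all 470 transcripts, 61, 63 and 58 were called in these fits. No count of members under an alternative is read as a result about the family. None of the 3 calls changed direction. Of 129 values not called, 40 changed sign under at least 1 alternative, the largest of 0.09. The causes were not tested.

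Over all transcripts, calls for the slope at 10m were 52, against 35 with no filter, 12 in females, 9 in males and 0 without Q175. For Q175 at 10m they were 56, against 34 with no filter, 36 with WT alone, 6 in females and 19 in males. For Q175 at 6m they were 16, against 138 without a batch term, 7 with no filter, 0 in females and 6 in males. Combined over ages they were 70, against 30 without WT, 21 without block A, 10 in females, 19 in males and 0 without Q175. For the slope at 6m they were 6, against 13 in DESeq2, 11 with RLE factors or a mean CPM of at least 10, 3 with library totals without the family, 2 without a batch term, 1 with no filter or in 1 sex, and 0 without Q175, WT or block A. Leaving out 1 library gave 2 to 10 at 6m, up to 80 for the slope at 10m (without M2 of Q20) and down to 8 for Q175 at 6m (without M4 of WT). Between the sexes at 2m they were 2, against 5 in DESeq2, 6 without Q175 and 4 without F1 of Q111.

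The replicate number was also added as a covariate, with females and males of the same number sharing a level. In these fits 1 member was called for the slope at 10m (Mir181a-2 0.10, adjusted p = 0.032), for Q175 at 10m (0.19, adjusted p = 0.043) and for the ages combined (Mir181a-1 0.09, adjusted p = 0.0078), and no other call changed. Libraries of the same sex and number did not deviate together (492 pairs, median r -0.00, 21.1% over 0.1, against 22.5% of 3540 other pairs), so the numbers only name the animals. Whether precision depended more on differences between animals or on depth was not tested.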
